A study of Mus musculus with 2 samples.

Results

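The protein-coding genes of the cytosolic ribosome were examined in RNA from the heart of aged female mice. Members were the genes whose symbol follows the Rpl or Rps naming pattern, or is Rplp0, Rplp1, Rplp2 or Rpsa, with at least 1 protein-coding transcript and no pseudogene suffix. The rule gave 84 of the 55536 genes in the gene table. They comprise 46 genes of the large subunit, 31 of the small subunit and 7 paralogs, which are second genes for a similar protein (Rpl3l, Rpl36al, Rps27l, Rpl22l1, Rpl7l1, Rpl39l and Rpl10l). There were 2 libraries, replicates 1 and 2 of 1 group. Both are heart tissue of B6CASTF1/J females, the first generation of a cross of C57BL/6J with CAST/EiJ, at 18 to 20 months, without treatment or a second group in the labels. Each was made from 300 ng of total RNA depleted of ribosomal RNA, with ERCC spike-ins. The labels name separate biosamples but the same donor entry, so the difference between the libraries may be technical in part. With no contrast, every value here is a description without a test. The genome build used, mm10, is that of C57BL/6J, and the alleles of the cross were not analysed here.

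The ribosome is built of a small subunit, which reads the mRNA, and a large subunit, which joins amino acids and holds the tunnel through which the new chain leaves. Most of its proteins are present once per ribosome, and their mRNAs share a start of pyrimidines, the TOP motif, through which mTORC1 controls their translation. Rpl3 reaches to the peptidyl transferase centre, where the bond is made, and Rpl3l is its paralog in heart and skeletal muscle. Ribosomal protein genes have given rise to a very large number of processed pseudogenes, which are copies of the mRNA inserted elsewhere in the genome, and a short read often fits both.

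The Rpl3l and Rpl3 genes share no 31-base stretch of coding transcript although their proteins are alike. Rpl3l lies on chromosome 17 at 24727820 to 24736143, plus strand, and Rpl3 on chromosome 15 at 80077791 to 80091868, minus strand (mm10, GENCODE M21). The proteins, of 407 and 403 amino acids, share 310 identical positions in 408 alignment columns (76.0%). None of the 1612 different 31-base words of the protein-coding Rpl3l transcripts occurs in those of Rpl3. The first 90 coding bases are shown from transcripts Rpl3-201 and Rpl3l-202, 5′ to 3′, because they show how changes are scattered along the pair, with the 21 differing bases in capitals.
Rpl3: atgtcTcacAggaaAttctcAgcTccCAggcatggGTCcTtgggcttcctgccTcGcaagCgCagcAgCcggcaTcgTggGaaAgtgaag
Rpl3l: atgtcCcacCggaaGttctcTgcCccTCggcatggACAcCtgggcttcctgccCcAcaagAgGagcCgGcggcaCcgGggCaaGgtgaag

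Many members have copies elsewhere in the genome that differ from them little or not at all, and 24 such copies share all of their 31-base words with a member. The middle 60 bases of the 3 copies with the highest level are shown beside the matching stretch of the member, with differing bases in capitals. Rps23-ps1 lies on chromosome 3 at 37714740 to 37715164, Rpl28-ps1 on chromosome 1 at 128038569 to 128038982 and Rps2-ps13 on chromosome X at 52898588 to 52899469, all on the plus strand.
Rps23: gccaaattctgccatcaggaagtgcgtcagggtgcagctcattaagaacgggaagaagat
Rps23-ps1: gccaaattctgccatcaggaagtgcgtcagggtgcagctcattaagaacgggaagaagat
Rpl28: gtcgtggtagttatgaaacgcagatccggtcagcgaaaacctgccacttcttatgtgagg
Rpl28-ps1: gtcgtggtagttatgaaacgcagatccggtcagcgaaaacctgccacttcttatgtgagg
Rps2: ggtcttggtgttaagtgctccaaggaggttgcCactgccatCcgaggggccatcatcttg
Rps2-ps13: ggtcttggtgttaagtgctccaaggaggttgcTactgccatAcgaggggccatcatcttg
The first 2 pairs are identical over these bases, and the third differs at 2 of them.

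Expected counts, which split a read among the genes it fits, totalled 35897521 in replicate 1 and 36926429 in replicate 2. Levels are given as TPM, the share of a gene among all transcripts of a library after division by transcript length, scaled to a fixed total. All 8 cardiomyocyte markers were high, from Ryr2 with a mean of 396 TPM to Myl2 with 8743 TPM. None of the 6 skeletal muscle markers reached a mean of 1 TPM, the highest being Mybpc1 with 0.295 TPM. The libraries differed in markers of other tissue. Summed over its list, the level of 11 adipocyte genes was 313 and 795 TPM in replicates 1 and 2, that of 6 airway genes 0.99 and 302 TPM, that of 10 lymphocyte genes 4.14 and 24.0 TPM, and that of 4 atrial genes 441 and 1066 TPM. The 7 erythroid genes went the other way, with 23412 and 11151 TPM. Every gene of these lists with a mean of 1 TPM or more lay on the same side as its list: 10 of 10 adipocyte, 6 of 6 lymphocyte, 6 of 6 airway and 4 of 4 atrial genes were higher in replicate 2, and 6 of 6 erythroid genes were lower. The airway genes Bpifa1, Scgb1a1, Scgb3a2 and Reg3g were at 0 TPM in replicate 1, and Lep was near 0 in both libraries.

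Of the 84 members, 82 had a mean of 1 TPM or more, and their median was 219 TPM. Each library has a pair of tables with a level for each gene, one in the column layout of RSEM, which is the one used unless the other is named, and one in the layout of kallisto. Members together held 16913 and 17807 TPM in replicates 1 and 2, which was 4.27% ± 0.253 (SD, n = 2) of the TPM of nuclear protein-coding genes, and 4.86% ± 0.303 in the kallisto-layout table. Of the 77 core genes, meaning both subunits without the paralogs, 64 had 100 TPM or more in both libraries and all 77 had 10 TPM or more. Their mean levels ran from 12.0 TPM to 619 TPM, a 51.6-fold range, with quartiles at 135 and 262 TPM. TPM divides by transcript length, but the level of a single member also depends on how reads were split between it and its copies, so an order of members holds for the table it is read from.

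**Figure D1:**
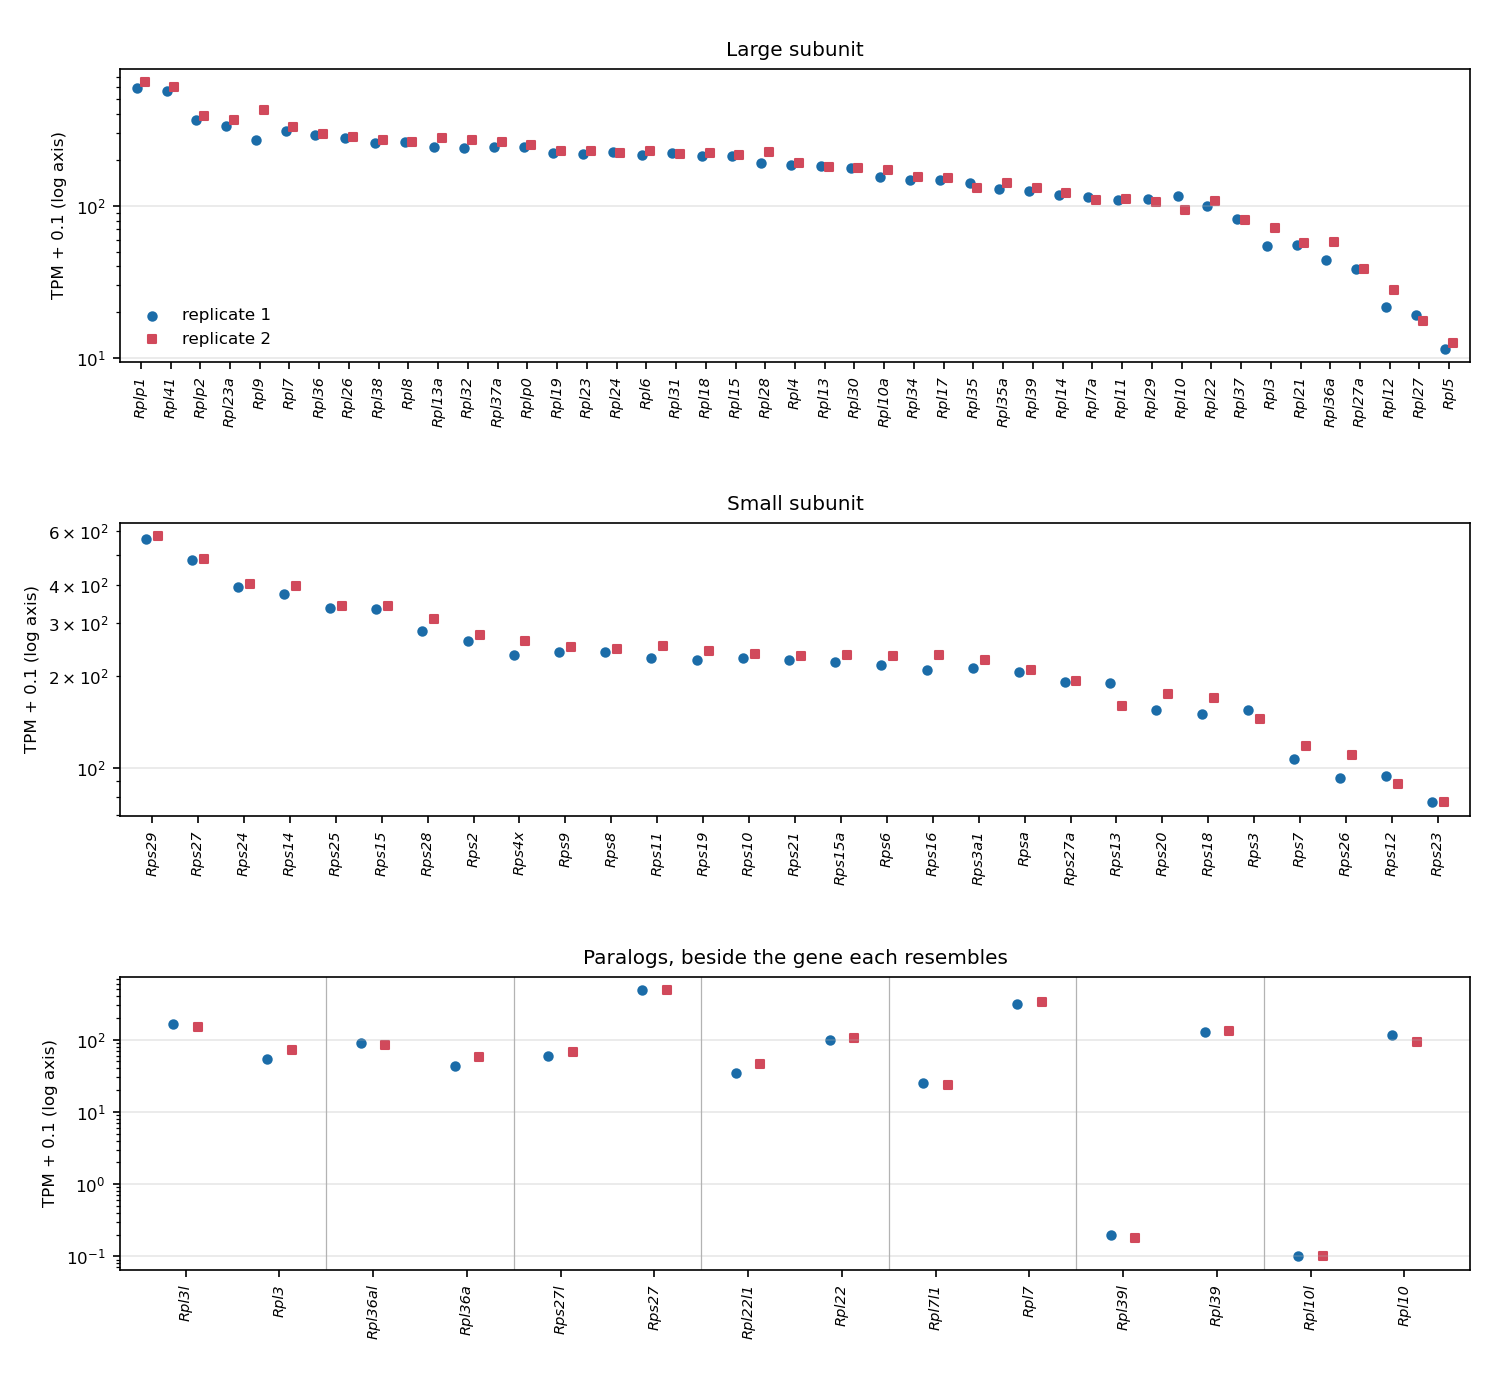
TPM + 0.1 (log axis) of 81 members in replicate 1 (circles) and replicate 2 (squares), for the large subunit, the small subunit and the paralogs beside the gene each resembles. The core genes have quartiles at 135 and 262 TPM, a tail of large subunit genes ends with Rpl5 at 11.5 and 12.5 TPM, and Rpl9 is the member whose points stand farthest apart.

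Rplp1, an acidic protein of the stalk, had the highest level, with 592 and 646 TPM in replicates 1 and 2. Rpl41, which encodes the smallest protein of the ribosome, had 565 and 603 TPM. Rps29, a zinc-binding protein of the small subunit, had 566 and 578 TPM. These 3 lay above every other member in both libraries. Rps27, another zinc-binding protein of the small subunit, had 481 and 486 TPM. Rps24, one of the small subunit genes mutated in Diamond-Blackfan anaemia, an inherited failure of red cell formation, had 393 and 401 TPM. Rps14, whose loss marks the 5q deletion syndrome of the bone marrow, had 372 and 395 TPM. Rplp2, the partner of Rplp1, had 366 and 389 TPM, and Rpl23a, at the rim of the exit tunnel, had 333 and 364 TPM. The kallisto-layout table put Rpl41 first, with 900.5 and 1009.9 TPM, followed by Rps29 with 694 and 779 TPM, and Rplp1 at rank 16 with 418 and 459 TPM.

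At the other end stood 5 genes of the large subunit. Rpl5, which carries 5S rRNA into the ribosome, had 11.5 and 12.5 TPM in replicates 1 and 2. Rpl27, a Diamond-Blackfan anaemia gene, had 19.2 and 17.5 TPM. Rpl12, at the base of the stalk, had 21.5 and 28.1 TPM. These 3 lay below all other core genes in both libraries. Rpl27a had 38.1 and 38.5 TPM, and Rpl36a, which lies near the exit site for tRNA, had 43.8 and 58.0 TPM. By the kallisto layout the same genes had 109.6 and 136 TPM (Rpl5), 193 and 191 TPM (Rpl27), 108 and 127 TPM (Rpl12), 271 and 295 TPM (Rpl27a), and 108 and 122 TPM (Rpl36a).

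The median of the 46 large subunit genes was 188.5 and 204 TPM in replicates 1 and 2. That of the 31 small subunit genes was 225 and 236 TPM. On the log2(TPM + 0.1) scale the large subunit median was below the small subunit median by a difference of -0.24 ± 0.028 (SD, n = 2). In the kallisto-layout table the medians were 279.9 and 299 TPM for the large subunit and 278 and 306 TPM for the small subunit, a difference of -0.011. The lower median of the large subunit was thus seen in only 1 of the 2 kinds of table.

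The P stalk, which recruits elongation factors to the large subunit, was uneven. Rplp0, its anchor, had 243 and 252 TPM in replicates 1 and 2, against 592 and 646 TPM for Rplp1, 366 and 389 TPM for Rplp2, and 21.5 and 28.1 TPM for Rpl12. By the kallisto layout Rplp0 (428 and 459 TPM), Rplp1 (418 and 459 TPM) and Rplp2 (449 and 500.4 TPM) lay close together, with Rpl12 lower at 108 and 127 TPM. Of the 5S RNP, the complex of 5S rRNA that also binds the p53 regulator Mdm2, Rpl11 had 109 and 111 TPM and Rpl5 had 11.5 and 12.5 TPM. Rpl11 was also the higher of that pair in the kallisto-layout table, with 248 and 270.4 TPM against 109.6 and 136 TPM. With the copies of each gene added to it, Rpl5 was the higher in both libraries and in both kinds of table. By the RSEM layout the copies held 209.9 and 219 TPM for Rpl5, and 73.9 and 79.7 TPM for Rpl11. By the kallisto layout they held 191 and 204 TPM for Rpl5, and at most 10.7 TPM for Rpl11.

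By the RSEM layout, genes around the peptidyl transferase centre ranged from Rpl8 with 262 and 261 TPM and Rpl4 with 185.5 and 192 TPM through Rpl10 with 115 and 93.4 TPM to Rpl3 with 54.5 and 71.5 TPM. The kallisto-layout table put Rpl10 highest of these 4, with 419 and 423 TPM, above Rpl8 (281 and 307 TPM) and Rpl4 (240.2 and 269.7 TPM), and left Rpl3 lowest (89.2 and 112 TPM). Of 8 genes of the exit tunnel and its rim, the highest by the RSEM layout were Rpl23a, Rpl26 (278 and 284 TPM) and Rpl19 (222 and 229.6 TPM), and the lowest was Rpl39 (126 and 130.2 TPM), the smallest protein of the tunnel wall. The kallisto layout gave another order, with Rpl31 (519.7 and 550.5 TPM) highest and Rpl19 (67.3 and 79.1 TPM) lowest of the 8. At the mRNA channel and the decoding site, Rps15 had 334 and 339 TPM, Rps2 had 262 and 273 TPM, Rps3 had 154 and 145 TPM, and Rps23 had 76.9 and 76.7 TPM. The last pair stood in the opposite order by the kallisto layout, with 94.9 and 106 TPM for Rps3 and 406 and 400.1 TPM for Rps23. The 19 genes of the Diamond-Blackfan list had a median of 221 and 223 TPM by the RSEM layout, with Rps29, Rps27 and Rps24 highest and Rpl5 lowest.

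Of the 4 members on the X chromosome, Rps4x had 235 and 261 TPM in replicates 1 and 2, Rpl39 had 126 and 130.2 TPM, Rpl10 had 115 and 93.4 TPM, and Rpl36a had 43.8 and 58.0 TPM. The kallisto layout put Rpl10 highest (419 and 423 TPM), above Rps4x (245 and 277 TPM), Rpl39 (223.5 and 236.5 TPM) and Rpl36a (108 and 122 TPM). Some ribosomal proteins have other gene symbols and are not among the 84. Of these, Fau, a ubiquitin-like fusion to a small subunit protein, had 232 and 239 TPM, and Rack1, a scaffold on the head of the small subunit, had 153 and 169 TPM. Their values lay within the range of the core genes.

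Rpl3l was the most abundant of the 7 paralogs and was higher than Rpl3 in both libraries and in both kinds of table. It had 164 and 152 TPM in replicates 1 and 2, from 5792 and 5665 expected counts. Rpl3 had 54.5 and 71.5 TPM, from 1510 and 1929 expected counts. The groups of values do not overlap, and Rpl3l was 3.02-fold and 2.12-fold higher, a log2 ratio of 1.34 ± 0.36 (SD, n = 2). In the kallisto-layout table Rpl3l had 202 and 214 TPM and Rpl3 had 89.2 and 112 TPM, ratios of 2.26 and 1.91. The ratio was lower in replicate 2 in both tables. The credibility intervals that the authors deposited with the posterior TPM were 157 to 166 and 145 to 154 TPM for Rpl3l, and 48.6 to 58.6 and 64.7 to 75.8 TPM for Rpl3. By the RSEM layout each gene's interval in one library thus lay apart from that in the other, in opposite directions. These intervals describe the assignment and sampling of reads within a library, not the spread between animals. By the kallisto layout both genes were higher in replicate 2, so the direction for Rpl3l depended on the table.

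Of the TPM of the pair, Rpl3l held 75.1% in replicate 1 and 68.0% in replicate 2, or 69.3% and 65.6% in the kallisto-layout table. By mean level, 24 of the 77 core genes lay below Rpl3l, and 16 of the 77 did in the kallisto-layout table. Rpl3l thus lay in the lower part of the range of single core genes. No other gene held 10% of its words in common with Rpl3l. Rpl3 has 11 such copies, which held 37.7 and 48.9 TPM. When they were added to Rpl3, Rpl3l was still 1.78-fold and 1.26-fold higher, and 1.60-fold and 1.32-fold higher in the kallisto-layout table. Transcript Rpl3l-202, the one with 407 codons, held 97.0% of the TPM of the gene in replicate 1.

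The next paralog, Rpl36al, encodes the same 106 amino acids as the X-linked Rpl36a but shares none of its 31-base words. It had 88.5 and 85.1 TPM, 2.02-fold and 1.47-fold the level of Rpl36a. The order was the opposite in the kallisto-layout table, with ratios of 0.941 and 0.760. With the copies of Rpl36a added to it, the ratios were 0.637 and 0.605. Rpl36al had nearly the same counts in both kinds of table (a ratio of 1.027 and 1.011), whereas those of Rpl36a were 2.31-fold and 1.91-fold higher in the kallisto-layout table.

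The other paralogs were lower than their partners in both tables. Rps27l, a p53 target whose protein shares 81 of 84 positions with Rps27, had 60.04 and 66.8 TPM, which was 0.125 and 0.137 of Rps27. Rpl22l1, which can stand in for the RNA-binding protein Rpl22 and shares 70.3% of its positions, had 34.2 and 46.3 TPM, 0.345 and 0.432 of Rpl22, which had 99.2 and 107 TPM. These ratios are of all transcripts. Protein-coding transcripts held 20.1% and 10.65% of the TPM of Rpl22l1, against 98.9% and 99% for Rpl22. By the kallisto layout these shares were 13.4% and 28.8% for Rpl22l1, and 27% and 26.3% for Rpl22. Rpl7l1, with 40.7% identity to Rpl7, had 24.7 and 23.2 TPM, 0.0793 and 0.0709 of Rpl7, which had 311 and 328 TPM. For these 3 pairs both libraries lay on the same side by more than the difference between them.

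The remaining 2 paralogs are known from the testis. Rpl39l, with 48 of 51 positions identical to Rpl39, had 2 expected counts in replicate 1 and 1 in replicate 2. Rpl39 was 1257-fold higher in replicate 1 (exact 95% Poisson interval for the count, 343 to 10230.3) and 1628-fold higher in replicate 2 (310.1 to 68252), intervals that cover counting error only. Rpl10l, with 211 of 214 positions identical to the X-linked Rpl10, had 0 counts in both libraries. Set against the 3 counts per library that a count of 0 allows, Rpl10 was at least 992-fold and 847-fold higher. The 4 germ line markers had mean levels of at most 0.1 TPM. Rps4l, a paralog by name of Rps4x, is annotated as a transcribed pseudogene and is not a member; it had 0.0121 and 0.0166 of the level of Rps4x.

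**Figure D2:**
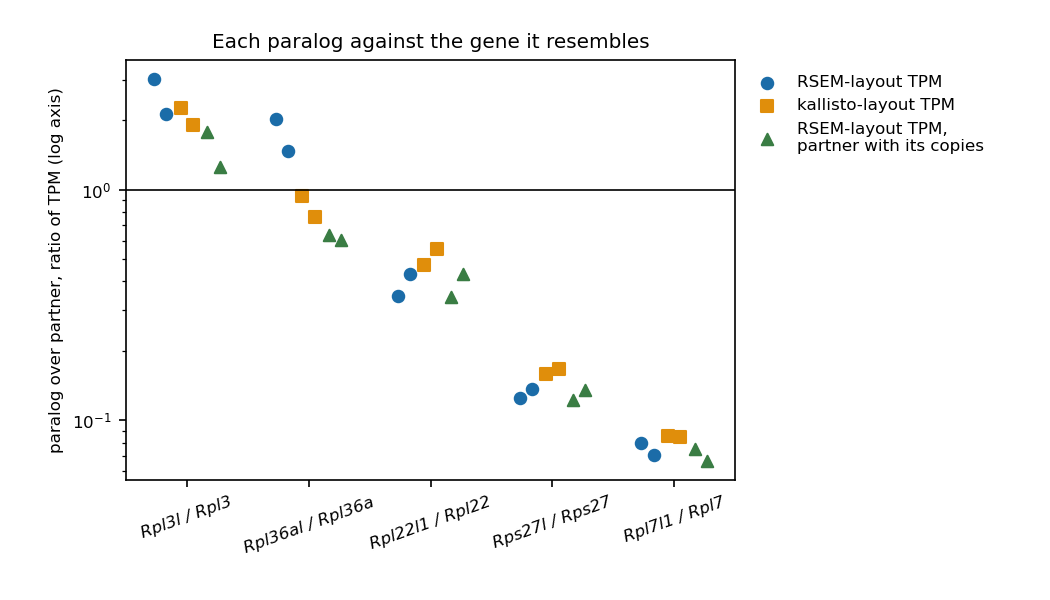
Ratio of the TPM of 5 paralogs to that of the gene each resembles (log axis), 1 point per library, in the RSEM-layout table, the kallisto-layout table and the RSEM-layout table with the partner's copies added to it. Rpl3l lies above 1 in all 6 values, from 1.26 to 3.02, Rpl36al lies on both sides of 1, and Rpl22l1, Rps27l and Rpl7l1 lie below 1 in every value.

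The copies held a large share of the reads. A copy was defined as a gene outside the 84, annotated as a pseudogene or as protein-coding, with at least 10% of its different 31-base words in protein-coding transcripts of a member. There were 1001 of them, 983 annotated as pseudogenes and 18 as protein-coding, and 81 of the 84 members had at least 1. Rpl3l and Rpl39l had none. Only 12 of the 106411 words of the members occurred in more than 1 member, so the sharing is with copies and hardly among the members themselves. Rpl7a had 91 copies, Rpl21 had 81, Rpl29 had 70 and Rps2 had 66.

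Copies together held 5537 and 5814 TPM in replicates 1 and 2, which was 32.7% ± 0.0635 (SD, n = 2) of the members' TPM. By the kallisto layout they held 3380 and 3831 TPM, or 14.4% ± 0.251. A level of at least 1 TPM in each library was seen for 107 copies in the RSEM-layout table and for 58 in the kallisto-layout table. The highest were Rps23-ps1 (285 and 306 TPM), Rpl28-ps1 (258 and 261 TPM) and Rps2-ps13 (250.5 and 262 TPM). In the kallisto-layout table Rps23-ps1 had 0 and 60.1 TPM, Rpl28-ps1 had 0 TPM in both libraries, and Rps2-ps13 had 272 and 308 TPM.

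For 15 members the copies held more TPM than the member. The ratio was highest for Rpl5, whose 9 copies held 209.9 and 219 TPM, 17.9 times the member. Most of this was Gm15500 on chromosome 7, which shares 99.9% of its words with Rpl5 and had 209.9 and 219 TPM. Copies held 10.5 times the member for Rpl27, 7.60 times for Rpl12, 5.54 times for Rpl27a and 3.87 times for Rps23. The first 4 of these are among the 5 core genes with the lowest level, and that level is the denominator of the ratio.

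The 2 kinds of table differed most for the same genes. The kallisto-layout TPM was 10.5 times the RSEM-layout TPM for Rpl27, 10.2 times for Rpl5, 7.38 times for Rpl27a, 5.25 times for Rps23 and 4.74 times for Rpl12. In counts, 13 of the 82 members were 1.5-fold or more higher in the kallisto-layout table in both libraries. The share of all genes that far apart between the tables, in either direction, is not given here. With the copies' counts added to the member in each table, all 13 came within 1.5-fold in both libraries. Rpl27, for example, had a ratio of 7.20 and 7.18 alone, and 1.032 and 1.013 with its copies. Rpl10 had 2.68 and 3.21 alone and 1.02 and 1.03 with its copies, among them Rpl10-ps3. That copy is annotated as protein-coding, and its 197 and 210.2 TPM by the RSEM layout stand beside 0 TPM by the kallisto layout.

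In the other direction, 5 members had 1.5-fold or more lower counts in the kallisto-layout table in both libraries, and none of these came within 1.5-fold with copies. Rpl36 had a ratio of 0.165 and 0.174 alone and 0.229 and 0.239 with copies. Rpl19 had 0.214 and 0.235 alone and 0.603 and 0.616 with copies, of which Rpl19-ps11 had 15.3 and 12.0 TPM by the RSEM layout but 209 and 214.5 TPM by the kallisto layout. The others were Rps21 (0.293 and 0.331), Rplp1 (0.344 and 0.335) and Rps29 (0.467 and 0.486). In TPM the members lowest in the kallisto-layout against the RSEM-layout table were Rpl19 (0.324), Rpl36 (0.464), Rps3 (0.674), Rplp1 (0.708) and Rpl17 (0.809). Over the 82 members the median count ratio was 1.07 in both libraries alone, and 0.992 and 1.00 with copies, and in each library 66 members were within 1.2-fold with copies against 50 without.

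**Figure D3:**
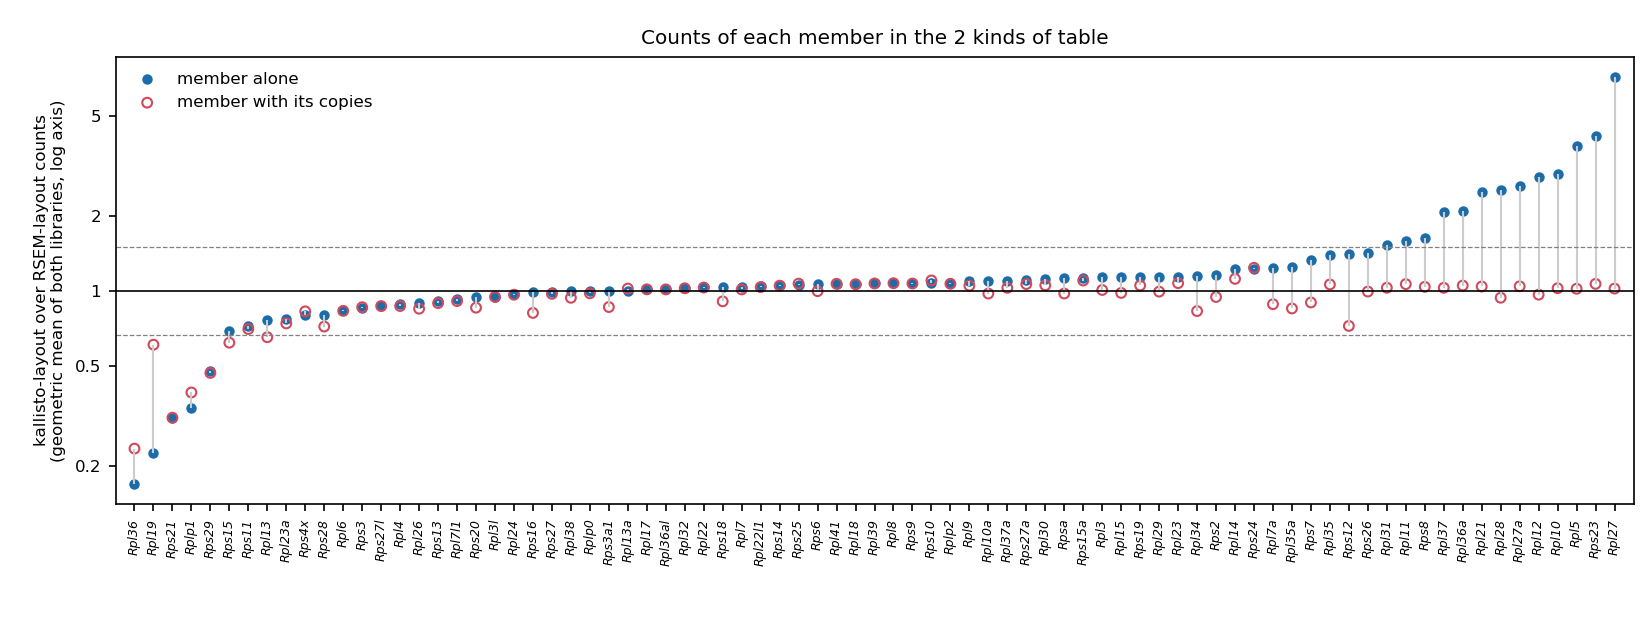
Kallisto-layout counts over RSEM-layout counts of 79 members (log axis, geometric mean of both libraries), for the member alone (filled) and with the counts of its copies added in each table (open); dashed lines mark 1.5-fold. The 13 members above the upper line alone, up to Rpl27 at about 7, lie close to 1 with their copies, while Rpl36, Rpl19, Rps21, Rplp1 and Rps29 lie below the lower line in both cases and Rps15 and Rpl13 do so with copies.

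With copies added, the core genes were also closer to each other. The SD of log2 TPM over the 77 core genes was 1.05 in the RSEM-layout table and 0.701 in the kallisto-layout table. With copies it was 0.533 and 0.599. The range from lowest to highest narrowed from 51.6-fold to 6.43-fold in the RSEM-layout table, from Rpl22 with 104 TPM to Rplp1 with 667 TPM, and all 77 core genes then had a mean of 100 TPM or more. Adding copies credits the member with any RNA made from the copy itself, so these sums are upper values. Rpl3l, with no copies, kept its 158 TPM while the median of the core genes went from 215 and 225 TPM to 264 and 284 TPM.

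Among the 77 core genes, those with a longer mean transcript length in the RSEM layout had lower TPM. Pearson's r was -0.43 and Spearman's rho -0.42 between log2 length and log2 TPM in replicate 1. TPM is itself divided by transcript length, so a negative value is partly built in, and the size of that part was not tested. Genes share their library here and are not replicates, so no p-value is given. With copies added the values were -0.39 and -0.44.

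Which transcript a member's reads were assigned to depended on the table. Members have 501 annotated transcripts, of which 235 are protein-coding, 176 retain an intron and 65 are processed transcripts without a reading frame. Protein-coding transcripts held 83.8% and 84.6% of the members' TPM in the RSEM-layout table, and 67.8% and 67.6% in the kallisto-layout table. Retained-intron transcripts held 6.95% and 7.12% against 17.6% and 17.9%. In 13 members protein-coding transcripts held under 50% in the RSEM-layout table, and in 25 in the kallisto-layout table. In 9 members it was so in both: Rpl22l1, Rpl23, Rpl35, Rpl37, Rps16, Rps18, Rps20, Rps23 and Rps26, named after their values were seen. The same shares over all genes are not given here.

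Among the members with the lowest protein-coding share in the kallisto-layout table were Rps27, Rpl37, Rps20 and Rps27l, with at most 0.548% in either library. For 2 of these the RSEM-layout table gave the opposite, with 99.7% and 99.8% for Rps27 and 89.5% and 92.2% for Rps27l. The reads of Rps27 went to Rps27-201, the coding transcript of 345 bases, with 479 and 485 TPM, by the RSEM layout, and to the retained-intron transcript Rps27-205, with 454 and 452 TPM, by the kallisto layout. For Rps20 and Rpl37 both tables were low, with 2.06% and 2.32% for Rps20 and 8.84% and 12.6% for Rpl37 in the RSEM-layout table. Rpl3l and Rpl36al have protein-coding transcripts only.

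**Figure D4:**
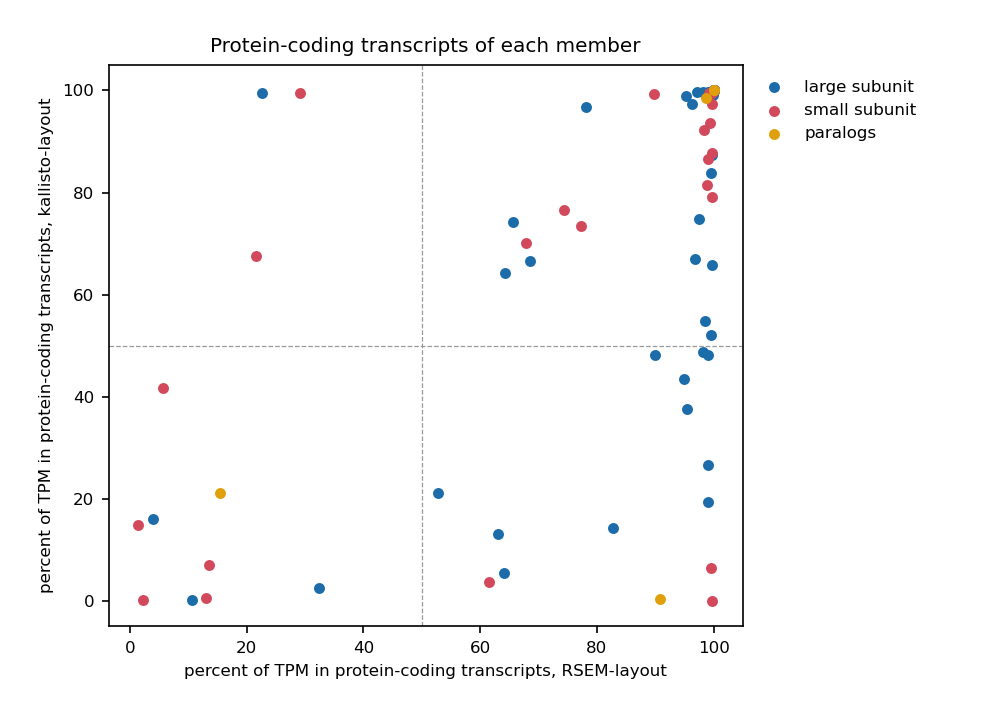
Percent of each member's TPM in protein-coding transcripts, RSEM-layout table on the horizontal and kallisto-layout table on the vertical axis, mean of both libraries, 1 point for each of 79 members with a mean of 1 TPM or more. Many members lie near 100 on the horizontal axis but spread from 0 to 100 on the vertical axis, among them Rps27 at the lower right.

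The annotated transcript starts of the members were compared with the TOP pattern, a C followed by 4 bases that are each C or T. At least 1 protein-coding transcript began so in 22 of 84 members (26.2%), against 5.12% of 21901 genes with a protein-coding transcript and 6.22% of those with a mean of 1 TPM or more. It was 10 of 46 in the large subunit, 12 of 31 in the small subunit and 0 of 7 among the paralogs. Annotated ends can lie some bases away from the true start, so the absence of the pattern says only that these letters are not there. The first 30 bases of the protein-coding transcript with the highest TPM are shown for 4 members with the pattern and for Rpl3 and Rpl3l without it, with the opening run of C and T in capitals.
Rpl32: CTTCCTTCTTCCTCggcgctgcctacgagg
Rps25: CCTTTTTTTCCgacatcttagcgaggctgc
Rpl4: CTTTTCCTgtgggagcagccgggtagagag
Rpl37a: CTCTTCggacttgggcttgggttccggcga
Rpl3: agggggcggagccatcacttggctttatat
Rpl3l: agctctgtcatttgacctctggtgcctggt
The run is 14 bases long in Rpl32, 11 in Rps25, 8 in Rpl4 and 6 in Rpl37a.

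Promoters from RefSeq (GRCm38.p6), 250 bases before to 50 after the start, were matched by symbol for 64 of the 84 members. The letters CCGGAAG, the core of a site for ETS factors, occurred on either strand in 26 of the 64 (40.6%), against 9.93% of 27025 genes. AAGATGGC, the core of a YY1 site, occurred in 6 of 64 (9.38%) against 3.19%. TATAAA occurred in 7 of 64 (10.9%) against 15.7%. None of the 3 was found in the window of Rpl3l. The 27025 genes were not limited to expressed ones, and the share among genes with a mean of 1 TPM or more is not given here. None of these motifs contains another, and a match is a description of the sequence only.

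Members differed little between the libraries. Rpl9, a large subunit protein whose gene lies on chromosome 5 at 65388364 to 65391444 on the minus strand, was the only 1 of 82 that was 1.5-fold or more apart, while 10.8% of the 12510 genes with a mean of 1 TPM or more were. No member was 2-fold apart, against 4.22% of all genes. Among highly expressed genes, with a mean of 100 TPM or more, 3.45% of 580 nuclear protein-coding genes were 1.5-fold apart, beside 1 of 68 members. Rpl9 had 271 and 423 TPM in replicates 1 and 2, 1.56-fold higher in replicate 2, from 4845 and 7952 expected counts. It was also the only 1 of the 82 that was 1.5-fold apart in the kallisto-layout table, where 12.1% of the same 12510 genes were. Of another set of 12719 genes tested in that table, 13.3% were 1.5-fold and 4.99% were 2-fold apart. The kallisto-layout ratio was 1.79, from 374 and 669.7 TPM. Its copy with the highest level, Rpl9-ps6, had 12.4 and 18.4 TPM, from 214 and 332 expected counts, and so was also higher in replicate 2. A copy can share reads with its member, so this is not a separate measure of the difference. By the kallisto layout the copies of Rpl9 together were lower in replicate 2, with 4.66 and 2.54 TPM. The deposited credibility intervals of Rpl9, 257 to 273 TPM and 404 to 424 TPM, lay far apart. Intervals that do not overlap between the libraries were not particular to Rpl9. They were found for 19 of the 77 core genes, Rpl3 among them, with 18 higher and 1 lower in replicate 2. The share over all genes is not given here.

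After Rpl9, the members with the highest ratio of replicate 2 over replicate 1 were Rpl22l1 (1.35-fold), Rpl36a (1.33-fold), Rpl3 (1.31-fold) and Rpl12 (1.31-fold). The lowest were Rpl10 (0.810-fold), Rps13 (0.846-fold), Rpl27 (0.912-fold), Rpl3l (0.923-fold) and Rpl35 (0.928-fold). Rps13 had 189 and 159.9 TPM, and it was lower in replicate 2 in both kinds of table. Its copy Rps13-ps1 on chromosome 8, which can share reads with it, was lower too, with 161 and 124 TPM. Rpl10 had 115 and 93.4 TPM but 419 and 423 TPM in the kallisto-layout table. In that table Rpl3l (1.06-fold) and Rpl35 (1.02-fold) were not lower in replicate 2 either.

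Small differences went mostly one way. In TPM, 65 of 82 members were higher in replicate 2 and 17 lower, with a median log2 ratio of 0.053, beside 54.0% of all genes and a median of 0.023. The count of higher members depended on the scaling. It was 78 of 82 in the kallisto-layout table, beside 62.4% of all genes. After rescaling TPM to nuclear protein-coding genes it was 72 of 82, beside 61.9%. With TMM-scaled counts it was 49 of 82, beside 45.1%, and with DESeq2 size factors 57 of 82, beside 47.75%. In each of these scalings the members' median log2 ratio lay above that of all genes, and with TMM it was 0.010 beside -0.026. The same libraries differ in adipocyte, lymphocyte, airway, atrial and erythroid markers as given above, and the part of these in the members' ratios was not tested. Less RNA per cell and fewer cells of a type cannot be told apart in such bulk samples.

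**Figure D5:**
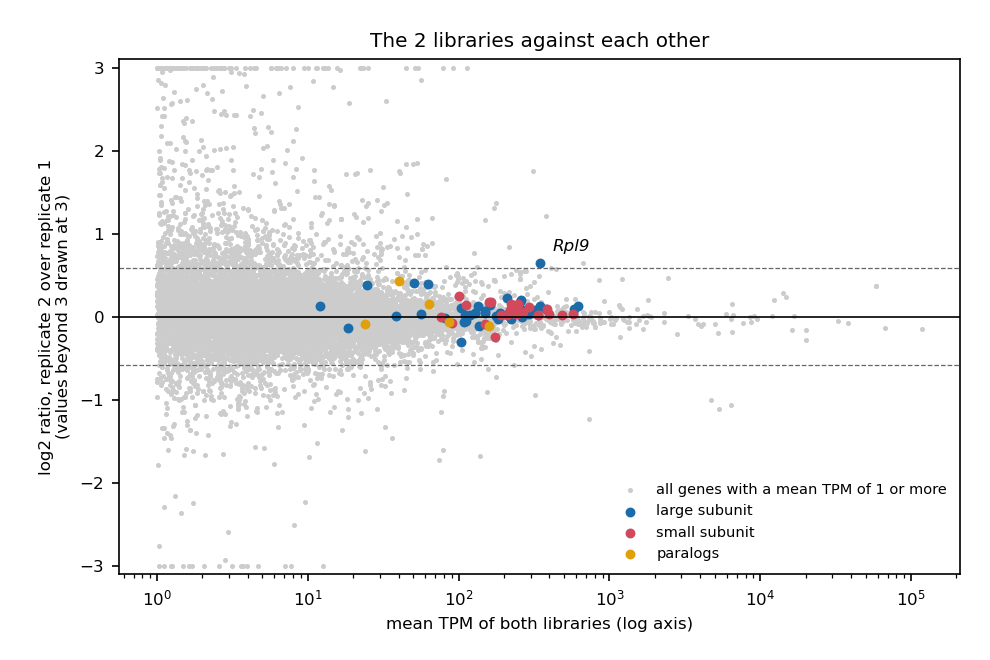
Log2 ratio of TPM + 0.1, replicate 2 over replicate 1, against the mean TPM (log axis) for all genes with a mean of 1 TPM or more (grey) and for 79 members (coloured by subunit), with ratios beyond 3 drawn at 3; dashed lines mark 1.5-fold. Rpl9 is the only member beyond a dashed line, at a log2 ratio of 0.65, and the lowest member is Rpl10 at -0.30.

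Genes that act with the ribosome were read from lists. All 35 initiation factors were detected at 1 TPM or above, and their median, 43.2 and 43.7 TPM, was below that of the members. The highest were Eif1, a factor of start codon choice (842 and 771 TPM), Eif4g2 (421 and 415 TPM) and the helicase Eif4a2 (156 and 174 TPM), and the lowest was Eif2b3 (5.03 and 6.55 TPM). None was 1.5-fold apart between the libraries, beside 10.8% of all genes. Of 11 elongation and termination factors, with a median of 119.7 and 117 TPM, Eef1a2, the form of the tRNA carrier used in muscle and nerve, had 605 and 574.5 TPM, Eef2 had 440.3 and 461 TPM, and Eef1a1, the general form, had 328 and 492 TPM. Eef1a1 was the one farthest apart between the libraries, with a log2 ratio of 0.58, just under 1.5-fold. In the kallisto-layout table it had 411 and 635 TPM, a log2 ratio of 0.63, which is past 1.5-fold. Eef2k, the kinase that inhibits Eef2, was lowest with 9.45 and 8.93 TPM.

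The 14 other known TOP mRNAs had a median of 100.2 and 107 TPM. The highest was Tpt1 with 1336 and 1282 TPM, above all members, followed by Eef2 and Eef1a1, and the lowest was Eif3f with 33.0 and 34.3 TPM. The pattern at the annotated start was present in 5 of these 14 (35.7%). Genes of ribosome assembly were far below the genes of the finished ribosome. The 25 biogenesis genes had a median of 9.64 and 9.05 TPM, with Npm1 (59.96 and 61.6 TPM), Ncl (44.2 and 44.03 TPM) and Nop10 (25.9 and 25.7 TPM) highest and the RNA polymerase I subunit Polr1b (4.16 and 4.22 TPM) lowest. By the RSEM layout the assembly factor Rrs1 was the only 1 of these 25 that was 1.5-fold apart, with 10.9 and 6.94 TPM, beside 10.8% of all genes. By the kallisto layout Rrs1 (11.4 and 7.34 TPM), Nop56 (13.9 and 24.0 TPM) and Utp20 (4.75 and 7.19 TPM) were, beside 12.1% of all genes. The 5 dedicated chaperones of ribosomal proteins had a median of 6.65 and 7.99 TPM, from Bccip (19.1 and 20.45 TPM), Heatr3 (9.15 and 8.03 TPM) and Pdcd2 (6.65 and 7.99 TPM) to Tsr2 (5.15 and 6.36 TPM).

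The list for mTORC1 and S6 kinase, 14 genes that include Myc, had a median of 15.9 TPM in both libraries. Highest by mean were the inhibitor Tsc2 (42.2 and 42.1 TPM), the activator Rheb (35.7 and 32.1 TPM) and the translational repressor Eif4ebp1 (22.4 and 39.4 TPM). Myc was lowest (0.92 and 1.97 TPM). In replicate 1 alone, Eif4ebp1 lay below Eif4ebp2 (28.1 TPM), Akt1s1 (27.0 TPM) and Larp1 (23.6 TPM). Eif4ebp1 and Myc were the 2 of 14 that were 1.5-fold or more apart, both higher in replicate 2, while 10.8% of all genes were so far apart. Myc rests on 55 and 103 expected counts. Of 6 genes for the rescue of stalled ribosomes, Rnf10 had 145 TPM in both libraries, Hbs1l had 29.9 and 28.9 TPM, Nemf had 10.2 and 8.85 TPM, and the lowest were Zfp598 with 5.97 and 6.68 TPM and Pelo with 6.35 and 6.33 TPM, whose order differed between the libraries. None of these 6 was 1.5-fold apart.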

How the data were processed

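The 2 libraries, of 1 group, hold total RNA from aged female heart. Per the deposited readme, all tables refer to mm10 and GENCODE M21; the programs are not named in what was used here. The authors deposited expected counts and TPM per gene and per transcript in the layout of RSEM, with isoform percent and, per the file headers, credibility bounds of the posterior TPM (treated as scores), and estimated counts and TPM in the layout of kallisto, which were summed per gene. Annotated length exceeded effective length by 99 bases in the RSEM-layout tables and by 325 and 322 bases in the kallisto-layout tables, which raises the kallisto-layout TPM of short transcripts. The spike-in label names a stranded library, but how strand was used in counting is not given, and 21 members overlap an exon of another gene, 19 of them on the opposite strand.

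The intervals and floors cover counting error only. Depth was 35897521 and 36926429 expected counts, at which 3 counts, the most a count of 0 allows, equal 0.0836 and 0.0812 CPM. Log2 ratios are on the log2(TPM + 0.1) scale, on which the change of a low gene is understated. Fold values are ratios of TPM without the added 0.1. Genes needed a mean of 1 TPM or more for comparisons of the libraries. Copies were found by 31-base words in the GENCODE transcripts, with a minimum of 10% and, as an alternative, 50%. Proteins were translated from the protein-coding transcript with the highest TPM and aligned with Biopython 1.88 (BLOSUM62, gap opening 11, extension 1). Counts were rounded to whole numbers for TMM scaling (edgeR 4.0.16) and DESeq2 1.42.0 size factors. The word search and the library comparison were tested on simulated data. Alternatives were the kallisto-layout table, rescaling to nuclear protein-coding genes, added copies, a pseudocount of 1, no low-value filter, posterior mean TPM, TMM and DESeq2 scaling, a 2-fold threshold and each library left out. There was no test between groups.

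The members and lists were chosen with earlier results of these data known. Named genes are the paralogs and partners, the 10 highest and 5 lowest core genes, the 5 with the highest and lowest library ratio, table ratio, copy TPM and coding share, the stalk, 5S RNP, X-linked and other-name lists, and the 3 highest and the lowest of other lists; copies and transcripts beside a member, Rps15, Rpl13, Rrs1, Nop56, Utp20, Rpl31, Pelo, Eif4ebp2, Akt1s1 and Larp1 were named after their values were seen. A few genes that these rules name are not reported or drawn here, though they stay in all counts and medians. Of 7 symbols for stalled ribosome rescue, 6 matched.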

Additional observations from a re-analysis of the deposited data

How the results depend on the processing

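No paired analysis was possible because there is 1 group. The median of the members, 219 TPM, was 284.5 TPM in the kallisto-layout table, 538 TPM after rescaling to nuclear protein-coding genes, 254 TPM with pseudogenes added, 261 TPM with protein-coding retrocopies as well and 261 TPM with copies of 50% of words or more. The last 2 settings were chosen after seeing the data. Leaving out a library gave 212 to 222 TPM. The share of nuclear protein-coding TPM, 4.27%, was 4.86% in the kallisto-layout table, 5.45% with pseudogenes and 5.59% with retrocopies as well, and 4.09% to 4.45% with 1 library left out. The log2 ratio of Rpl3l over Rpl3, 1.34, was 0.58 with pseudogenes, 0.58 with retrocopies as well and 0.59 at 50% of words, and 1.08 to 1.59 with 1 library left out; it stayed above 0 in each setting tried. The large over small subunit difference, -0.24, was -0.011 in the kallisto-layout table and -0.20 with all copies, and -0.26 to -0.22 with 1 library left out. At 2-fold in place of 1.5-fold, 0 members were apart. Of the other 35 values, for 7 pairs of paralogs, 34 kept their side of 0, and Rpl36al over Rpl36a reversed from 0.78 to -0.24 in the kallisto-layout table. Causes were not tested, except that adding copies raises the members by construction. Depth limits only Rpl39l and Rpl10l, which had at most 2 counts.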
